A study of Mus musculus with 6 samples.

Results

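The complement genes described here are C1qa, C1qb and C1qc, which encode the chains of C1q, the components C3, C4b and Cfp (properdin), and the receptors C3ar1 and C5ar1. They were chosen by name as the complement components and receptors of interest, and all 8 were found among the 54532 genes of the deposited tables. Their level was measured by RNA sequencing in 6 libraries, 1 for each condition.

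C1q is the recognition molecule of the classical complement pathway, which binds antibody on a surface as well as dying cells and debris. Unlike most complement components, which the liver secretes, C1q is made mainly by tissue macrophages and dendritic cells. Bound C1q activates the proteases that cleave C4 and C2, the resulting convertase cleaves C3, and the C3b that coats the target is recognised by phagocytes. The alternative pathway amplifies C3 cleavage, with properdin as the stabiliser of its convertase, and the small fragments C3a and C5a signal through the receptors C3aR and C5aR1.

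The macrophages came from 4 kinds of C57BL/6 mice of 6 to 8 weeks. WT mice received PBS and carried no leukemia, and WT/FE mice carried no leukemia and received iron dextran. MA9 mice were transplanted with GFP+ leukemia cells that derive from c-kit+ bone marrow (BM) cells infected with a retrovirus for the MLL-AF9 fusion gene, and received PBS. MA9/FE mice carried the same leukemia and received iron dextran. Iron dextran was injected into the peritoneum 6 times, every other day, as 0.2 mL at 25 mg/mL, and in leukemic mice it began 1 week after transplantation. Leukemia cells from the BM of MA9 and of MA9/FE mice gave the other libraries. The macrophages were sorted as GFP-, F4/80+ cells with low Gr-1. The labels give the spleen as their source and the methods give the BM. By the labels, kind of cell and organ cannot be told apart wherever leukemia cells are compared with macrophages. The number of animals behind a library was not stated, so no value has a replicate check.

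The depth that scaled the deposited FPKM (fragments per kilobase of exon, scaled to depth) was recovered as 16085346 to 19518359 reads per library. The reads recovered per gene summed to 16697178 to 19838442, and in MA9/FE macrophages to 17492106 against a depth of 16085346, and reads are approximate where a value was not whole. All values of the 8 genes were whole. The 95% intervals given with levels and ratios cover counting error only. A gene was called where log2(FPKM + 1) differed by at least 2-fold between 1 library and another and at least 10 reads were present in one of them. All 15 genes of a macrophage marker list were detected in the 6 libraries, and their summed FPKM was 368 to 626 in macrophages and 237 to 252 in leukemia cells. The macrophage libraries also carried B cell markers. The 10 genes of that list summed to an FPKM of 1266 to 2257 in macrophages and 22.7 to 24.1 in leukemia cells, with 9 or 10 of them at an FPKM of at least 10 in each macrophage library. Neutrophil markers (10 genes) summed to 3.70 in WT and 2.62 in WT/FE macrophages, where 3 of the 10 were at 0, and to 1789 (MA9) and 907 (MA9/FE) in macrophages of leukemic mice. In the leukemia cells the neutrophil sum was 2145 to 2812. The part of other cell types in the values below was not tested.

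C1q was higher in each macrophage library than in the leukemia cells, and the chains kept nearly the same order of libraries. C1qa, the A chain, had an FPKM of 67.7 (WT) and 137 (WT/FE) and, with leukemia, 62.8 (MA9) and 223 (MA9/FE) in macrophages, and of 4.50 (MA9) and 3.61 (MA9/FE) in leukemia cells. C1qb, the B chain, had an FPKM of 61.4, 124, 64.7 and 201 in the same order of macrophages, and of 5.97 and 3.35 in the leukemia cells. C1qc, the C chain, had an FPKM of 38.8, 73.6, 35.2 and 125 in macrophages and of 2.65 and 2.0 in leukemia cells. MA9/FE macrophages stood highest for each chain and WT/FE macrophages next. The WT and MA9 macrophages were neighbours whose counting intervals overlapped for all 3 chains. In the leukemia cells the intervals of C1qa and C1qc overlapped between libraries with and without iron, and those of C1qb did not. The lowest level, 65 to 69 reads per chain in MA9/FE leukemia cells, is far above the limit of 3 reads that a count of 0 would allow.

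**Figure D1:**
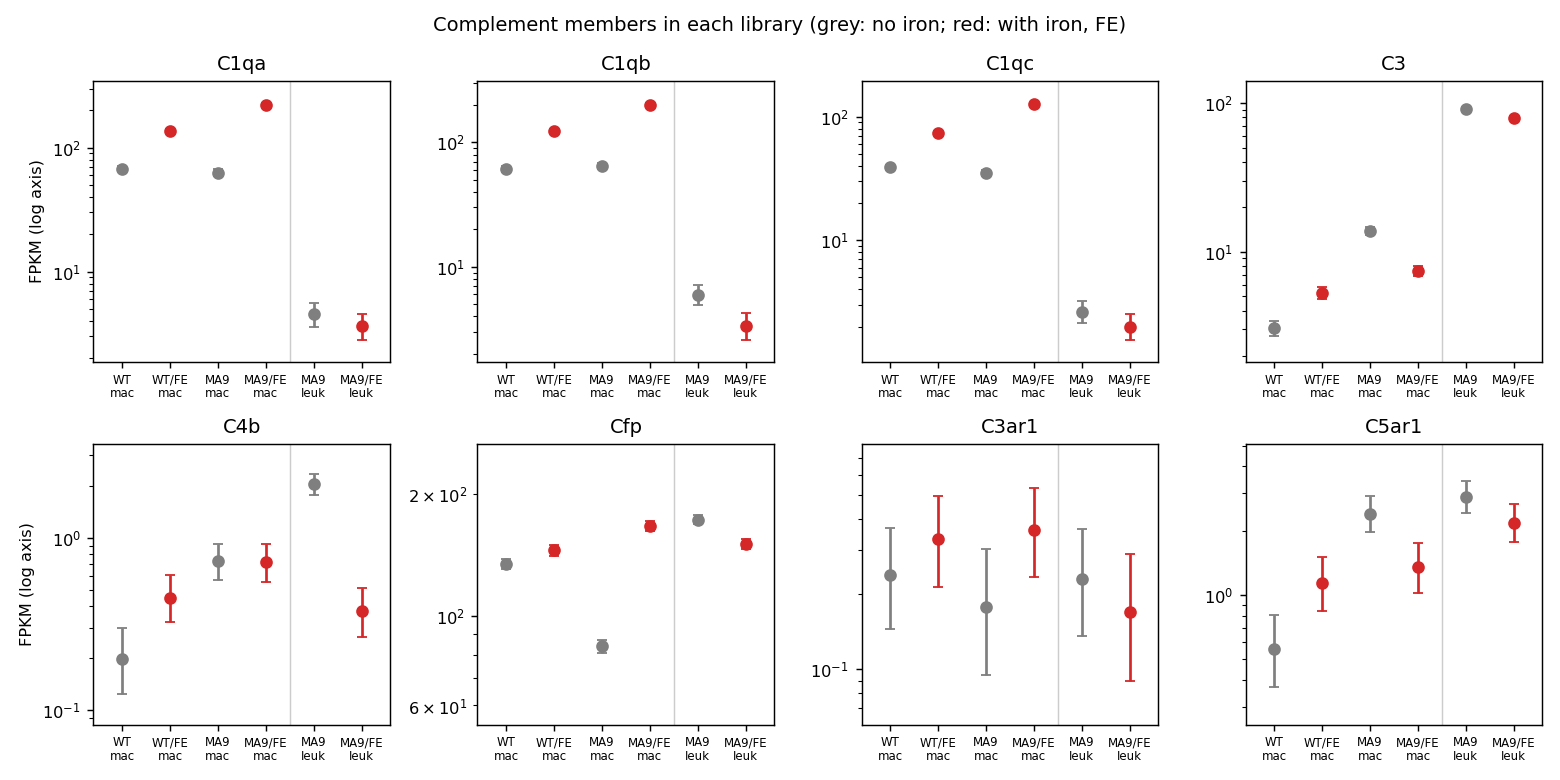
FPKM of each of the 8 genes (log axis, a separate scale per panel) in the 4 macrophage and 2 leukemia cell libraries, with 1 point per library, grey without and red with iron. Bars are 95% counting intervals. The C1q chains are highest in MA9/FE macrophages, at an FPKM of 125 to 223, and C3 is highest in the leukemia cells, at 79.2 and 91.5.

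The chains also stayed in proportion. Of the summed C1q FPKM, C1qa made up 38.6% to 40.9% in the macrophages, C1qb 36.5% to 39.8% and C1qc 21.6% to 23.1%. The leukemia cells with iron lay within or near these ranges, at 40.3%, 37.4% and 22.3%. MA9 leukemia cells had a share of C1qb of 45.5% and of C1qa of 34.3%, from 118 and 85 reads. The root mean square difference between the centred log2(FPKM + 1) profiles of the chains over the 6 libraries was 0.11 for C1qa and C1qc, 0.13 for C1qb and C1qc and 0.18 for C1qa and C1qb. This likeness is a description over 6 libraries that differ in kind of cell. No window of 50 bases is shared between the annotated transcripts of any pair of chains, so reads of that length would not be split among them.

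The C1q genes lie side by side on the minus strand of chromosome 4 (GRCm38). C1qb occupies chr4:136880129-136886187, C1qc chr4:136889804-136893065 and C1qa chr4:136895917-136898803. The cluster spans 18675 bases, with 3616 bases between C1qb and C1qc and 2851 between C1qc and C1qa. Because the chains had like profiles, the stretches before the starts of C1qb and C1qc are shown with that of C3, which was higher in leukemia cells than in macrophages. They are RefSeq promoter sequences of GRCm38.p6 on the gene's strand, cut before the first annotated exon. C1qb covers chr4:136886201-136886450, C1qc chr4:136893066-136893164 and C3 chr17:57228137-57228386. Capitals mark matches on either strand to GAGGAA, a core that the myeloid factor PU.1 binds, to TGCTGA, an element of MAF factors, and to GAAANNGAA, an element of interferon regulatory factors.
C1qb: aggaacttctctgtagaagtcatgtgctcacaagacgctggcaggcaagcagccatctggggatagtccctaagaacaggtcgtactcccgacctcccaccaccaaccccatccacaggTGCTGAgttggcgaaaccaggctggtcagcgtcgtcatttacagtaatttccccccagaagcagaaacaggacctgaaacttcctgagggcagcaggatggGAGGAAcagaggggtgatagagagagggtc
C1qc: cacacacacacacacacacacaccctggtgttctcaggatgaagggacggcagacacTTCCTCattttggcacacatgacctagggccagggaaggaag
C3: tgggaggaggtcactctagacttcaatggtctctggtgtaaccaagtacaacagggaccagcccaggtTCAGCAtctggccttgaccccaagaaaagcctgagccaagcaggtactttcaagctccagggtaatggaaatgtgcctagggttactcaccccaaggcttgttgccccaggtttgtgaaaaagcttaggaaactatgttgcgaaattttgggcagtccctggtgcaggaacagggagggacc
C1qb holds GAGGAA and TGCTGA, at 30 and 131 bases before the RefSeq start. In C1qc GAGGAA is present on the opposite strand, and in C3 TGCTGA is present on the opposite strand. Promoter windows of 300 bases were at hand for 6 of the 8 genes, and 3 of the 6 (C1qb, C1qc and Cfp) hold GAGGAA, 4 of the 6 (C1qb, C3, C3ar1 and C5ar1) hold TGCTGA and 1 (C5ar1) holds GAAANNGAA. Of the 32851 promoter windows of that length in the table, 28.3%, 19.5% and 8.56% hold these letters, so such matches are common. The motifs do not overlap in the stretches shown. A match says only that the letters are there.

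With iron and no leukemia, every C1q chain was at nearly double its level. On the log2(FPKM + 1) scale C1qa differed by 0.99, C1qb by 0.99 and C1qc by 0.90 between WT/FE and WT macrophages, which is just short of 2-fold. The ratio of scaled reads was 2.01 for C1qa (95% interval 1.88 to 2.15), 2.01 for C1qb (1.87 to 2.15) and 1.89 for C1qc (1.77 to 2.02). C1qa and C1qb therefore sit at the border of the call, and 0 of 8 genes were called, where 0.728% of 16754 genes were called higher and 0.543% lower. With a pseudocount of 0.1, both were called. All 8 genes had a positive difference, with a median of 0.54 against -0.01 over all genes tested. Fewer or more cells of a type and less or more RNA per cell cannot be told apart in these bulk samples.

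In leukemic mice the difference with iron was larger. C1qa was 3.63 times as high in MA9/FE as in MA9 macrophages (3.40 to 3.89), C1qb 3.19 times (2.98 to 3.40) and C1qc 3.65 times (3.42 to 3.90), as ratios of scaled reads. On the log2(FPKM + 1) scale these are differences of 1.84, 1.66 and 1.84. Together with Cfp, 4 of the 8 genes were called higher and 0 lower, where 1.2% of 16512 genes were called higher and 1.26% lower. The median over the 8 genes was 0.62 against 0.01 over all genes tested. Between the responses of WT and MA9 macrophages the differences of the log2 values were 0.85 for C1qa, 0.66 for C1qb and 0.94 for C1qc, and whether the responses differ was not tested, since each is 1 library against 1.

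Leukemia by itself went with little difference in C1q. Between MA9 and WT macrophages C1qa differed by -0.09, C1qb by 0.09 and C1qc by -0.13 on the log2(FPKM + 1) scale, and the intervals of the read ratios of C1qa (0.864 to 1.01) and C1qb (0.983 to 1.15) include 1. That of C1qc, 0.846 to 0.989, does not. Under iron the same contrast gave higher values, with read ratios between MA9/FE and WT/FE macrophages of 1.66 for C1qa (1.57 to 1.74), 1.65 for C1qb (1.57 to 1.74) and 1.73 for C1qc (1.64 to 1.82). None of these passed 2-fold. These contrasts share the MA9/FE, MA9, WT/FE and WT libraries with the contrasts on iron and are not further evidence for them.

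**Figure D2:**
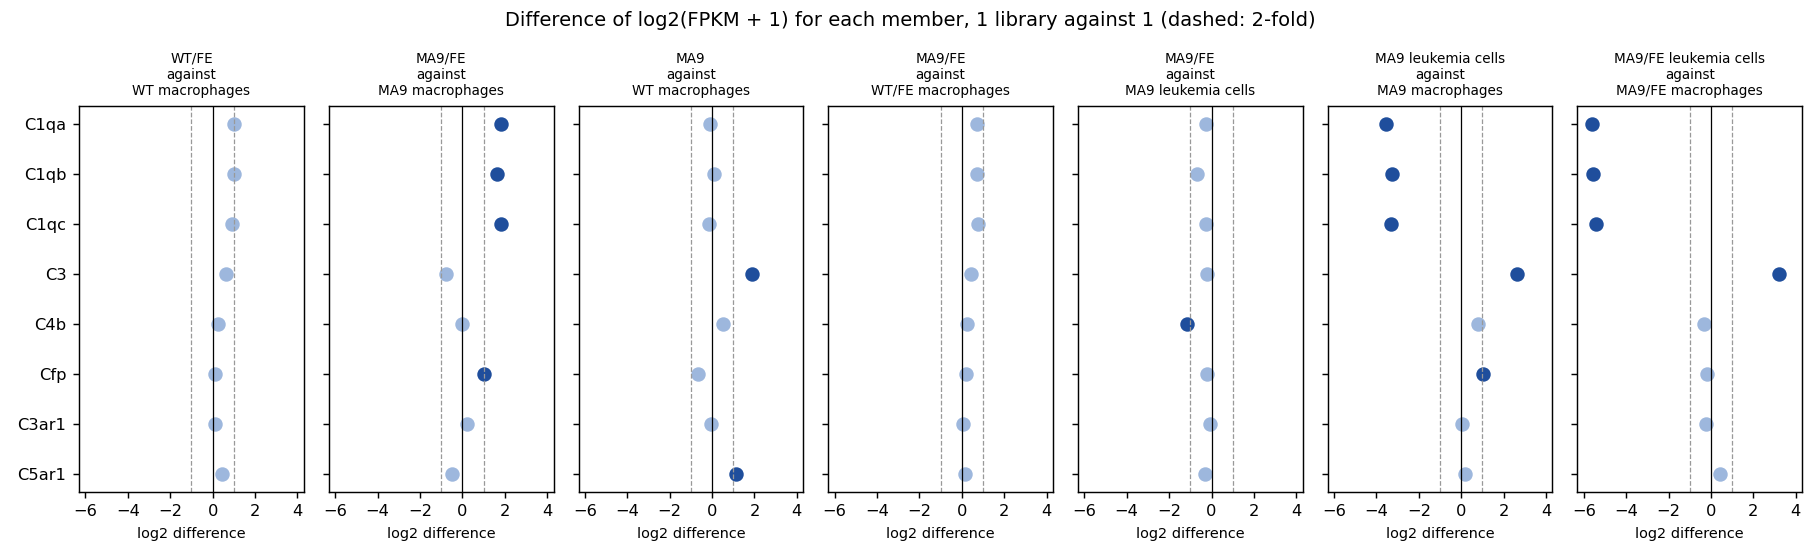
Difference of log2(FPKM + 1) after scaling for each gene (rows) in the 7 comparisons (panels), 1 library against 1, with dashed lines at 2-fold and dark points for genes past it. With iron the C1q chains lie at 0.90 to 0.99 in WT and at 1.66 to 1.84 in MA9 macrophages, and in the leukemia cells all 8 genes lie below 0.

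The macrophage markers were higher with iron as well, so the C1q values were set beside them. In WT/FE against WT macrophages all 15 markers had a positive difference (median 0.83, range 0.05 to 1.17), and 5 of them passed 2-fold. The C1q chains lay inside that range. In MA9/FE against MA9 macrophages all 15 were again positive (median 0.90, range 0.08 to 1.47), with 6 past 2-fold, and each C1q chain lay above the highest of them, the iron exporter Slc40a1. Mertk, a receptor for the uptake of dying cells, differed by 1.16 in WT and 0.82 in MA9 macrophages, and Spic, a factor of iron-recycling macrophages, by 0.66 and 1.10. The C1q sum was scaled by factors over all 6 libraries, and not per pair as the chain ratios were. So scaled, the C1q sum was 2.0 times as high with iron in WT macrophages (1.92 to 2.07) and 3.37 times in MA9 macrophages (3.25 to 3.51). Divided by the macrophage marker sum, it was 1.28 and 1.98 times as high. That sum is weighted to abundant genes such as Cd68 and Hmox1. These differed by 0.05 and 0.35 in the WT pair and by 0.38 and 0.71 in the MA9 pair, below the median of the list in both. Single markers gave other values. C1qa over Mertk was 8.09 (WT) and 6.81 (WT/FE) without leukemia, and 7.24 (MA9) and 14.2 (MA9/FE) with it. C1qa over Csf1r was 1.2 and 1.23 without leukemia, and 0.983 and 2.27 with leukemia. In WT macrophages the direction thus depended on the marker, and in MA9 macrophages each of these ratios was higher with iron. The C1q sum was 43.7% of the marker sum (WT) and 56.0% (WT/FE) and, with leukemia, 44.3% (MA9) and 87.6% (MA9/FE) in macrophages. In MA9/FE against MA9 macrophages the 10 B cell markers were also all positive (median 0.56), and 9 of the 10 neutrophil markers were negative (median -0.91). T cell markers were positive for 6 of 7 (median 0.48) and dendritic cell markers for 1 of 5 (median -0.16). The dendritic cell markers summed to an FPKM of 95.1 (MA9) and 81.5 (MA9/FE) in these libraries. The part of these cell types in the difference was not tested.

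**Figure D3:**
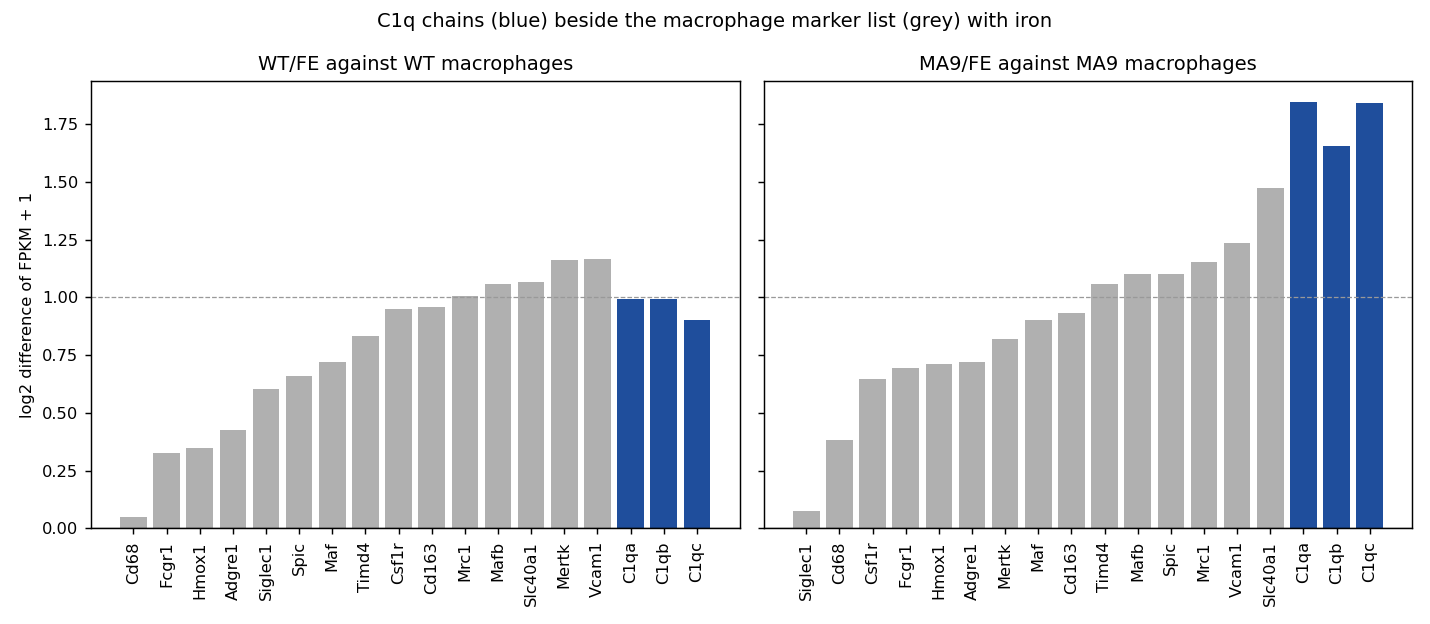
Difference of log2(FPKM + 1) with iron for the 15 macrophage markers (grey, sorted) and the 3 C1q chains (blue) in WT and in MA9 macrophages, 1 library against 1. The C1q bars lie within the range of the markers in WT macrophages, at 0.90 to 0.99, and above it in MA9 macrophages, at 1.66 to 1.84.

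The genes with the profile most like that of C1q were sought among the 9950 genes that reached an FPKM of 5 in some library, by the root mean square difference of centred log2(FPKM + 1) over the 6 libraries. The nearest were Spic (0.28), Cd5l (0.28), Fcna (0.29), Hes1 (0.42) and Id3 (0.44). Spic is also on the macrophage marker list. Cd5l, a secreted protein of tissue macrophages, had an FPKM of 17.8 (WT) and 44.1 (WT/FE) and, with leukemia, 32.5 (MA9) and 81.6 (MA9/FE) in macrophages and of 1.10 to 1.24 in leukemia cells. Fcna, or ficolin A, a recognition molecule of the lectin pathway of complement, had an FPKM of 33.3, 67.2, 30.9 and 127 in the macrophages and of 2.53 and 3.22 in the leukemia cells. Its macrophage levels stood in the same order as those of C1qa and C1qc. Hes1 and Id3, which encode transcriptional regulators, had their highest level in MA9/FE macrophages too, at an FPKM of 34.0 and 30.4. In WT/FE and WT macrophages, however, Hes1 was at 23.7 and 22.5, and Id3 at 22.2 and 24.1.

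**Figure D4:**
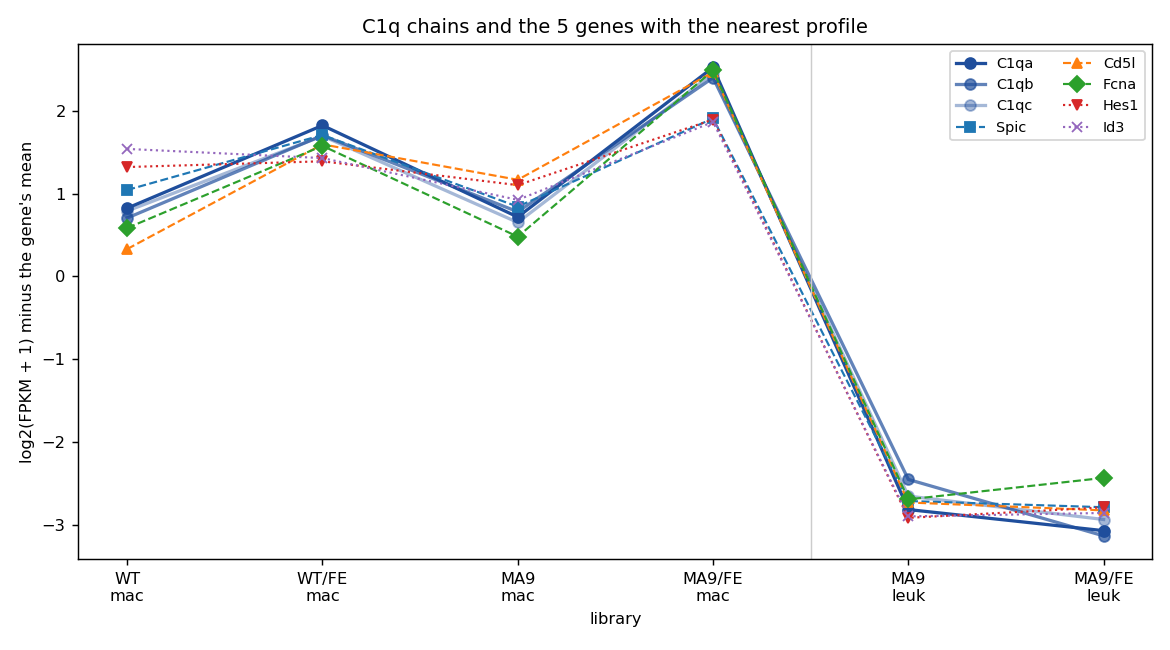
Profiles of C1qa, C1qb and C1qc (solid) and of the 5 nearest genes (broken lines) over the 6 libraries, as log2(FPKM + 1) minus the mean of each gene. Spic, Cd5l and Fcna, at 0.28 to 0.29 from the mean C1q profile, follow both steps up with iron. At the step in WT macrophages Hes1, at 0.42, is nearly flat, and Id3, at 0.44, does not follow.

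C1q had its lowest levels in the leukemia cells. Between MA9 leukemia cells and MA9 macrophages C1qa differed by -3.57, C1qb by -3.27 and C1qc by -3.34 on the log2(FPKM + 1) scale. With iron in both, the differences were -5.63, -5.56 and -5.42. These exceed 2-fold in every case, in comparisons where 12.6% (of 17044) and 13.2% (of 16842) of the genes were called lower and 7.34% and 9.6% higher. Over the 8 genes, 2 were called higher and 3 lower without iron, and 1 higher and 3 lower with iron. The C1q sum was 5.55% (MA9) and 3.56% (MA9/FE) of the macrophage marker sum in leukemia cells. Part of that marker sum is broad: Cd68 had an FPKM of 100.1 and 107 in the leukemia cells, and Mertk of 0.24 and 0.25.

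C3, the component on which the pathways converge, was higher in leukemia cells than in macrophages, the opposite of C1q. It had an FPKM of 3.06 (WT) and 5.25 (WT/FE) and, with leukemia, 13.8 (MA9) and 7.46 (MA9/FE) in macrophages, and of 91.5 (MA9) and 79.2 (MA9/FE) in leukemia cells. No neighbours in that order had overlapping counting intervals, and every leukemia cell value was above every macrophage value. The gene lies on the minus strand at chr17:57203970-57228136. Between leukemia cells and macrophages it differed by 2.61 without iron and by 3.22 with iron, as log2(FPKM + 1). By the labels these cells also came from different organs. Among macrophages C3 was 4.55 times as high in MA9 as in WT by scaled reads (4.01 to 5.18). There C3 and C5ar1 made 2 of 8 genes called higher, where 3.79% of 16926 genes were called higher and 0.91% lower. With iron the macrophage values came closer together. C3 was 1.71 times as high in WT/FE as in WT (1.48 to 1.98) and 0.554 times as high in MA9/FE as in MA9 macrophages (0.502 to 0.611). Between MA9/FE and WT/FE macrophages the ratio was 1.44 (1.27 to 1.63), in a comparison in which 0 of the 8 genes were called and 2.93% of 16571 genes were higher and 1.64% lower. Markers of some other cells were higher as well in that contrast of MA9 with WT. All 10 neutrophil markers were positive (median 5.99), and 5 of 5 erythroid markers passed 2-fold (median 2.01). Of 5 monocyte markers 3 were positive and 2 passed 2-fold (median 0.94, range -0.45 to 5.94). Of 5 MLL-AF9 leukemia markers 4 were positive and 1, Myb, passed 2-fold (median 0.30, range -0.12 to 1.19). With iron, the neutrophil marker sum was 907 against 1789 in MA9 macrophages and 2.62 against 3.70 in WT macrophages. The WT sums were near the floor, with 3 of the 10 markers at 0 in each library. The part of these cells in the C3 values was not tested. The genes with the nearest profile were Erg (0.23), Mmp8 (0.24) and Mlkl (0.24), and Mmp8 is a neutrophil collagenase on that marker list.

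C4b, the mouse gene for complement C4, was low in every library. Its FPKM was 0.198 (WT) and 0.449 (WT/FE) and, with leukemia, 0.733 (MA9) and 0.720 (MA9/FE) in macrophages, from 22, 43, 71 and 66 reads, and 2.04 (MA9) and 0.374 (MA9/FE) in leukemia cells, from 211 and 38 reads. MA9 leukemia cells stood alone at the top, and the other neighbours in the order had overlapping intervals. Between MA9/FE and MA9 leukemia cells the ratio of scaled reads was 0.183 (0.126 to 0.260), and the difference of -1.15 on the log2(FPKM + 1) scale made C4b the 1 gene of the 8 that was called there, in a comparison with 0.435% of 15415 genes called higher and 0.428% lower. The MA9 and WT macrophages differed by 0.54 on that scale and by a read ratio of 3.74 (2.29 to 6.34), since a pseudocount of 1 shrinks the change of a low gene. C4b at chr17:34728380-34743882 has a close copy, C4a, which starts 65209 bases further on. Of the windows of 50 bases in the longest C4b transcript, 35.2% also occur in C4a, and of those of 100 bases 16.5%, so the split of reads between them is uncertain. C4a itself had 20 to 53 reads per library. Of the nearest profiles, Rnu73b (0.17), Sarnp (0.21) and Rpl7a (0.22), the first is a small RNA. They are near only on log2(FPKM + 1), where the change of C4b is shrunk. Its highest FPKM was 10.3 times its lowest, while Rpl7a ran from 105 to 213.

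Cfp had the highest FPKM of the 8 genes in 5 of the 6 libraries, the exception being MA9/FE macrophages, where C1qa and C1qb were higher. Properdin, its product, is made by myeloid cells. Cfp had an FPKM of 135 (WT) and 145 (WT/FE) and, with leukemia, 84.0 (MA9) and 167 (MA9/FE) in macrophages, and of 173 (MA9) and 151 (MA9/FE) in leukemia cells. It was thus high in both kinds of cell, and the MA9 macrophages stood apart below the other libraries. MA9/FE macrophages had 2.04 times the MA9 level by scaled reads (1.94 to 2.14), a difference of 1.02 as log2(FPKM + 1), and MA9 leukemia cells had 2.02 times that level (1.92 to 2.12), a difference of 1.0. Both calls sit at the border. The first was 0.98 with scaling to the total, 0.99 with the median of ratios and 0.83 with the trend on exon length removed, and the second 0.997 with TMM without hemoglobin and immunoglobulin genes and 0.95 with that trend removed. In WT macrophages iron went with a ratio of 1.07 (1.03 to 1.12), and in leukemia cells with 0.872 (0.838 to 0.906). Between MA9 and WT macrophages the ratio was 0.629 (0.599 to 0.661). The B cell marker sum was also lowest in MA9 among the macrophage libraries, while the order of the others differed from that of Cfp. It was 2257 (WT) and 2117 (WT/FE) and, with leukemia, 1266 (MA9) and 2187 (MA9/FE). All 10 B cell markers were negative in MA9 against WT macrophages (median -0.64). In the leukemia cells the B cell marker sum was 22.7 to 24.1. The part of B cells in the Cfp values was not tested. Cfp lies on chromosome X, at chrX:20925454-20931555. Lgals4 (0.11), Crlf2 (0.14) and Icam2 (0.14) had the nearest profiles.

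The receptors for the released fragments were low as well. C3ar1, the C3a receptor, had an FPKM of 0.169 to 0.361 in the 6 libraries, from 13 to 25 reads, and all neighbours in its order had overlapping intervals. At this depth a difference in C3ar1 was not detectable for most comparisons, and the ratio of MA9/FE to MA9 macrophages had an interval of 1.03 to 4.44. C5ar1, the C5a receptor, had an FPKM of 0.558 (WT) and 1.13 (WT/FE) and, with leukemia, 2.40 (MA9) and 1.35 (MA9/FE) in macrophages, and of 2.87 (MA9) and 2.18 (MA9/FE) in leukemia cells. The order resembled that of C3, with WT macrophages at the bottom and MA9 leukemia cells at the top. By scaled reads, C5ar1 was 4.35 times as high in MA9 as in WT macrophages (2.84 to 6.85), from 105 and 28 reads, 2.02 times as high in WT/FE as in WT (1.25 to 3.35) and 0.578 times as high in MA9/FE as in MA9 macrophages (0.410 to 0.807). The genes with the nearest profile to C5ar1 were Carnmt1 (0.07), 1700017B05Rik (0.08) and Ms4a6d (0.09). Those nearest to C3ar1 were Abhd13 (0.03), Zfpl1 (0.04) and Tmem234 (0.04). These distances are on log2(FPKM + 1), where the pseudocount of 1 flattens genes as low as the receptors. Without it, the highest FPKM of C3ar1 was 2.13 times its lowest, while Tmem234 ran only from 27.7 to 30.3. C3ar1 lies at chr6:122847138-122856161 and C5ar1 at chr7:16246743-16259540.

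In the leukemia cells iron went with lower values of all 8 genes, by 0.07 to 1.15 on the log2(FPKM + 1) scale, with a median of -0.27 against 0.00 over all genes tested. For C1qb the ratio of scaled reads was 0.560 (0.407 to 0.764), for C3 0.865 (0.838 to 0.892) and for C5ar1 0.759 (0.580 to 0.990). The intervals of C1qa (0.573 to 1.12), C1qc (0.544 to 1.04) and C3ar1 (0.331 to 1.58) include 1. Neutrophil markers were lower in the same pair, with 9 of 10 negative and a median of -0.43, and their part in these values was not tested.

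Of the wider complement pathway, 52 genes were listed by role, the 8 genes among them, and 24 of the 52 reached an FPKM of 1 in some library while 6 were at 0 in all. With iron, C6, a component of the membrane attack complex, was called higher in both kinds of macrophages. It had an FPKM of 3.59 (WT) and 9.04 (WT/FE) and, with leukemia, 2.73 (MA9) and 7.87 (MA9/FE) in macrophages and no reads in the leukemia cells, and its read ratios with iron were 2.51 (2.15 to 2.93) and 2.96 (2.47 to 3.55). Fcna was called in MA9/FE against MA9 macrophages, at 4.23 times the level (3.90 to 4.60). C6 and Fcna were the only genes called with iron in macrophages among the 44 others. Of these, 20 (WT pair) and 22 (MA9 pair) had enough reads, with median differences of 0.06 and 0.01. Over all genes tested, 0.728% of 16754 were called higher and 0.543% lower in the WT pair. In the MA9 pair 1.2% of 16512 were called higher and 1.26% lower. The 9 receptors with enough reads had medians of 0.04 in WT and -0.08 in MA9 macrophages. The 6 and 7 regulators had medians of -0.02 and -0.05. In either group 0 were called, which at these shares is not a result about receptors or regulators.

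With leukemia, Fcnb, or ficolin B, a lectin of neutrophil precursors and monocytes, was called in both pairs of macrophages. It had no reads in WT and WT/FE macrophages, an FPKM of 8.61 (MA9) and 4.64 (MA9/FE) in macrophages, and of 49.6 and 53.5 in leukemia cells. Against the limit of 3 reads per library it was at least 75-fold higher in MA9 than in WT macrophages and at least 34.8-fold higher in MA9/FE than in WT/FE macrophages, and the exact 95% intervals of the read ratios start lower, at 61.0 and 28.2. Between leukemia cells and macrophages, without and with iron, C1rl (log2 differences 1.71 and 1.51), Fcnb (2.37 and 3.25), Itgam (1.49 and 1.40) and Cd93 (2.99 and 4.17) were among the genes higher in the leukemia cells. Itgam encodes a chain of complement receptor 3. Fcna (-3.20 and -4.95), C6 (-1.91 and -3.16), Cr2 (-5.23 and -5.93), Itgax (-4.12 and -4.0) and Cd55 (-4.48 and -5.11) were lower in both pairs, and Cd59a was lower without iron (-1.11). Cr2 is complement receptor 2, a receptor of B cells, whose markers summed to far more in the macrophage than in the leukemia cell libraries. C6 had no reads in the leukemia cells, which puts it at least 58.7-fold and at least 166-fold lower there against 3 reads per library, with read ratios up to 0.0207 and 0.00727 in the exact 95% intervals. The recognition molecules C1q and Fcna were thus lower in the leukemia cells, where Fcnb and C3 were higher.

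An additive limma fit over the 4 macrophage libraries tested iron and leukemia across genes. It has 1 residual degree of freedom, so its spread comes from departures from additivity and not from differences between mice of 1 group. limma moderated that spread across all genes, and the SEs and p-values rest on the moderated spread. For iron it gave log2 effects of 1.43 (SE 0.24) for C1qa, 1.33 (SE 0.22) for C1qb and 1.38 (SE 0.26) for C1qc, with Benjamini-Hochberg adjusted p = 0.551, 0.551 and 0.555 by limma. No gene passed an adjusted p of 0.05 (0 of 16268, 0%), while 579 had an unadjusted p under 0.05, and these include the C1q chains. With only the 12363 genes of at least 50 reads, limma gave adjusted p = 0.0413 for C1qa and C1qb and 0.0547 for C1qc, and called 26 genes. Across all alternatives run on this fit the adjusted p of C1qa ran from 0.0413 to 1.0. For leukemia 131 of 16268 genes passed (0.805%) and none of the 8, with C3 at an effect of 1.16 (SE 0.34, limma adjusted p = 0.223). With at least 50 reads C3 passed, at limma adjusted p = 0.0431, where 662 of 12363 genes passed (5.35%). In the other settings the limma adjusted p of C3 ran from 0.102 to 0.526. Over the 3 pairs with and without iron, with the pair as a block, 0 of 17152 genes passed (0%), 603 had an unadjusted p under 0.05, and the adjusted p of all 8 genes was 0.992. Those pairs join libraries of 1 kind of cell and not of 1 animal. With iron C1qb was higher in macrophages and lower in leukemia cells, and for C1qa and C1qc the intervals in leukemia cells include 1.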

How the data were processed

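RNA of sorted macrophages and leukemia cells was sequenced on an Illumina NovaSeq by a service provider, and the authors deposited FPKM per Ensembl gene, 1 library per condition. The submitters' processing notes name Bowtie2 2.2.5, RSEM and mm10, without roles. FPKM multiplied by GENCODE exon length (GRCm38) gave whole multiples of 1 step for 96.8% to 97.0% of values above 0 (tolerance 0.05 reads), from which reads and depth were recovered. FPKM were scaled by TMM (trimmed mean of M values, coded by hand), per pair for the differences and over all 6 libraries for the C1q sums. Differences of log2(FPKM + 1) of at least 2-fold were called where 1 library of the pair had at least 10 reads, with no test. Intervals (95%) are exact binomial ones on the 2 read counts. limma 3.58.1 (R 4.3.3) was fitted to genes that reached 10 reads in 2 or more libraries. Python 3.11.15 with pandas 2.3.3, numpy 2.4.6 and scipy 1.17.1 was used, and the steps were tested on simulated data. Alternatives were other scalings, pseudocounts and minimum reads, and leaving out a pair. The genes and lists were chosen with earlier results of these data known. Genes named are the 8, listed genes past 2-fold at an FPKM of at least 1, and the 5 or 3 nearest profiles, and 1 listed gene is not reported here. p-values measure only the spread between these libraries.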

Additional observations from a re-analysis of the deposited data

Results flagged for a closer look

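With 1 library per condition none of the differences between contrasts below was tested. They stand here because the counting intervals of the read ratios lay on opposite sides of 1 in the contrasts compared, and each value is the second difference minus the first on the log2(FPKM + 1) scale. With iron, C3 and C5ar1 were higher in WT and lower in MA9 macrophages, with a difference of -1.39 for C3 (0.62 against -0.77) and of -0.96 for C5ar1 (0.45 against -0.51). With iron, C1qb and Cfp were higher in MA9 macrophages and lower in MA9 leukemia cells, with a difference of -2.34 for C1qb (1.66 against -0.68) and of -1.22 for Cfp (1.02 against -0.20). With leukemia, C1qc and Cfp were lower in macrophages without iron and higher with iron, with a difference of 0.91 for C1qc (-0.13 against 0.78) and of 0.88 for Cfp (-0.66 against 0.22).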

How the results depend on the processing

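Of 439 recomputed differences of single genes, 408 moved by less than their counting error, 3 took the other sign and 21 crossed 2-fold. Of 140 recomputed counts and C1q sums, 110 stayed within 1.5 times or the counting error and 30 moved. The sign changed for C4b in MA9/FE against MA9 macrophages and for C5ar1 in MA9/FE against WT/FE macrophages, all within 0.02 of 0 after the change. In WT/FE against WT macrophages, where 0 of the 8 genes and 1 of the 52 listed passed 2-fold, 1 and 2 passed with scaling to the total, 1 and 2 with the median of ratios, 2 and 4 with a pseudocount of 0.1, 2 and 4 with the trend on exon length removed, and 4 and 6 by the ratio of reads with 0.5 reads added. With that ratio 10 listed genes passed in MA9/FE against MA9 macrophages (6 before), 8 in MA9 against WT (3 before), 6 in MA9/FE against WT/FE (1 before) and 3 in the leukemia cells (1 before). With a pseudocount of 0.1 those for MA9 against WT and for MA9/FE against WT/FE were 6 and 5. The shares of all genes called under these settings are not given here, so these counts are not a result about the listed genes. The C1q sum with iron was 2.0 and 3.37 times as high in WT and MA9 macrophages, and 1.28 and 1.98 times per macrophage marker sum.

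In the limma fit over 4 libraries 0 genes passed for iron (579 unadjusted) and 131 for leukemia. Scaling to the total gave 2 and 385, TMM that leaves out hemoglobin and immunoglobulin genes 6 and 467, the median of ratios 2 and 400, at least 50 reads 26 and 662, and a spread that varies with level 4 and 499. A pseudocount of 0.1 gave 0 (775 unadjusted) and 32, and no minimum of reads gave 0 (939 unadjusted) and 0 (2871 unadjusted). Over the 3 pairs limma called 0 genes with the pair as a block, 0 without it (39 unadjusted) and 0 without any 1 pair (531 to 796 unadjusted). Those pairs join libraries by kind of cell, since the labels give no animal for a library. The ratio of reads, removing the trend on exon length and the spread that varies with level were chosen after seeing the data. The causes were not tested. Depth limits C4b, C3ar1 and C5ar1, and the lack of replicates limits all.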
